A study of Mus musculus with 6 samples.

Results

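Potassium channel genes and the genes of the hyperpolarisation-activated cation channels (HCN) were followed in outer hair cells of the mouse cochlea at embryonic day E18.5. The set holds every symbol of the count tables that is written as Kcn followed by letters and an optional number, or as Hcn followed by a number, which gave 97 of 23337 symbols. Of these, 81 encode pore-forming or pore-modifying subunits and 16 encode auxiliary subunits, and they were placed by symbol in 17 subfamilies. The symbols Kcne1l and the noncoding Kcnq1ot1 share the stem but not the pattern and are not described.

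The libraries fall into 3 labelled Insm1-Het and 3 labelled Insm1-KO. In both genotypes the cells were sorted from cochleae as positive for Insm1-GFP-Cre, so the reference group also carries an altered Insm1 allele, and no wild-type group is part of the comparison. The product of Insm1 is a zinc-finger transcription factor, which young outer hair cells express for a short time. By its title, the series concerns the conversion of outer into inner hair cells when it is missing. The labels give neither the deleted part of the gene nor whether a library is 1 animal or a pool, so p-values reflect only how these samples spread, possibly for technical reasons. In bulk libraries, fewer cells of a type and less RNA per cell cannot be told apart.

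Potassium channels let potassium leave the hair cell and so set its resting potential and the speed of its receptor potential. Voltage-gated (Kv) subunits assemble as tetramers, some of them silent subunits that reach the membrane only together with another Kv subunit. Inward rectifiers and two-pore-domain channels hold the resting potential, calcium-activated channels follow calcium entry, and HCN channels pass an inward current when the cell is hyperpolarised. In outer hair cells the small-conductance channel Kcnn2 is coupled to the efferent acetylcholine receptor of Chrna9 and Chrna10.

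Library totals ran from 7705177 to 12427039 counts, and between 12126 and 13763 genes had a count. Insm1 itself was at 109.3, 116.2 and 69.2 CPM (counts scaled to a common library size) in Het and 78.7, 60.3 and 18.7 in KO libraries. It was thus counted in every library labelled KO, with KO replicate 1 above Het replicate 3. It did not pass the test between genotypes (adjusted p = 0.938, edgeR). The summed level of 12 hair cell markers ranged from 11042 to 11304 CPM (Het) and from 11078 to 12911 CPM (KO). Myo6 alone was at 4849 to 5210 CPM. Atoh1 and Tmc1 were higher in every KO library, as were 5.08% of all tested genes. Tmc1 would not have passed the filter on low counts without its KO counts, so its separation supports no difference. Gfi1 was lower in every KO library, as were 6.1% of all tested genes. The other hair cell markers overlapped between genotypes, and 0 of the 12 passed after adjustment by edgeR. The summed level of 6 outer hair cell markers, Insm1 among them, ranged from 421.2 to 487.2 CPM (Het) and from 421.8 to 494.2 CPM (KO). Of these, the outer hair cell motor Slc26a5, Ikzf2, Bcl11b, Chrna10 and Insm1 were counted in every library and overlapped between genotypes. Ocm, a calcium buffer of older outer hair cells, was at 0 in all 3 Het libraries and had 15, 22 and 33 counts in the KO libraries. Ocm passed the filter on low counts through its KO counts alone, so its separation supports no difference. The summed level of 6 inner hair cell markers ranged from 203.2 to 272.2 CPM (Het) and from 281.2 to 663.0 CPM (KO). Of these, Slc7a14, the most abundant in Het libraries, overlapped between genotypes, and Slc17a8 and Atp2a3 stayed under 2 CPM. Fgf8 was counted in KO replicates 1 and 3 alone. Tbx2 and Brip1 were higher in every KO library, as were 5.08% of all tested genes. Neither Tbx2 nor Brip1 would have passed the filter without its KO counts, so their separation is a description and supports no difference. Brip1 held 76.8, 88.0 and 421.5 CPM of the KO sums and at most 5.93 CPM of a Het sum. The separation of the sums therefore supports no difference either.

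Channel genes took between 0.110% and 0.136% of the counts of a library. Summed over the 97 genes, their level averaged 1264 ± 42.3 CPM (Het) and 1218 ± 207.2 CPM (KO; SD, n = 3). The repertoire was narrow. The 10 genes with the highest CPM held 74.7% of the mean summed level, and the first 5 held 50.1%. In all, 16 genes had 0 counts in all 6 libraries, which at this depth allows a level of up to 0.0487 CPM for each. Another 21 genes had 1 to 3 counts in all, and 27 had more but did not pass the filter on low counts. The remaining 33 genes passed and were tested between genotypes, and they held 98.3% of all channel counts.

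Levels of different genes were compared as CPM per kilobase of merged exons (CPM per kb), given as mean ± SD over the 6 libraries. The subunit of the large-conductance calcium-activated (BK) channel Kcnmb2 came first with 34.3 ± 8.43, followed by Kcnh6 with 30.6 ± 7.91 and Kcnk1 with 24 ± 10.5 CPM per kb. Kcns3, Kcna10, Kcnip3, Kcnh2 and Kcnf1 followed between 21.5 and 16 CPM per kb. Along this order each gene before Kcnf1 differed from the one named after it by less than its SD. After Kcnf1 came a step, to Kcnh7 at 7.56 ± 1.92 CPM per kb. Among all tested genes these members ranked over a wide range. Kcnmb2 stood at percentile 88.7 per length, Kcnf1 at 72.4 and Kcnh7 at 51.5.

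**Figure D1:**
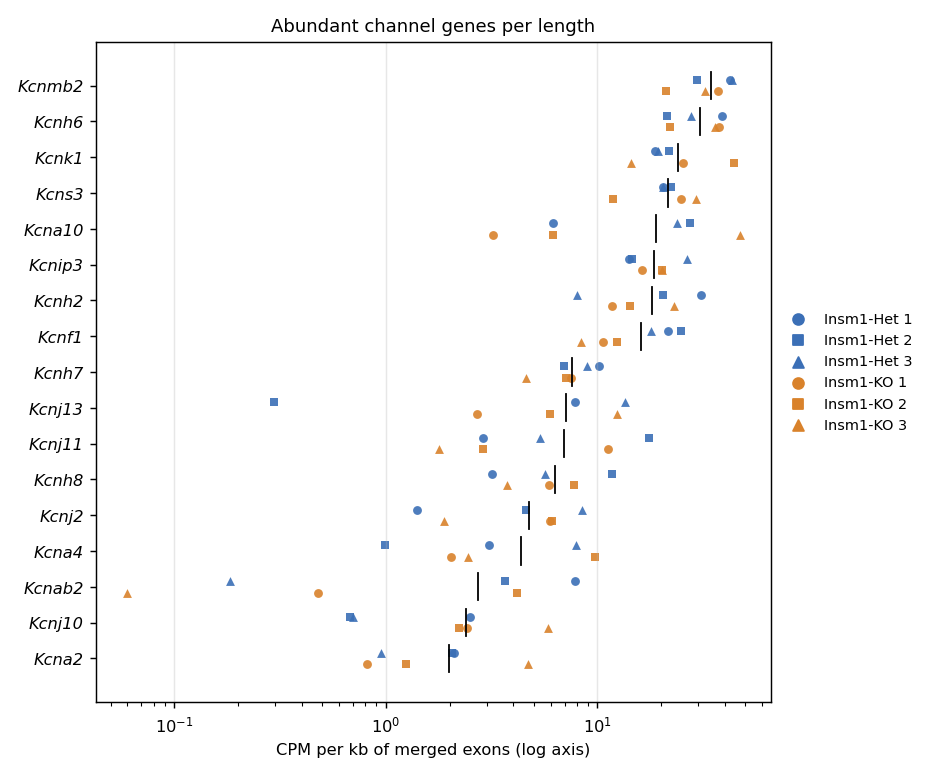
Level of 17 of the 20 most abundant channel genes in each library, as CPM per kb of merged exons on a log axis; blue symbols are Insm1-Het libraries, orange symbols Insm1-KO libraries, and the black line is the mean of 6. The genes from Kcnmb2 to Kcnf1 have means from 34.3 to 16 CPM per kb, while Kcna10, Kcnj13 and Kcnab2 spread over more than a factor of 10 between libraries.

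Kv channels of the ether-a-go-go family were the most abundant subfamily, with a summed level of 63.6 ± 12 CPM per kb, or 23.5% of the total of all members. The 3 erg genes, whose channels recover quickly from inactivation and so pass current as the cell repolarises, made up most of it. Kcnh6 measured 137.7, 75.6 and 98.2 CPM in Het and 133.5, 78.3 and 127.4 in KO libraries. Kcnh2 measured 150.2, 98.6 and 38.9 CPM in Het and 56.8, 68.6 and 111.5 in KO libraries. Both genes overlapped between genotypes, and Kcnh6 was the steadier of the pair. Kcnh7 measured 155.9, 106.0 and 136.2 CPM in Het and 114.2, 107.9 and 70.1 in KO libraries. Its KO to Het difference was -0.45 log2 units (95% interval -1.16 to 0.27); differences are given in this direction throughout. Kcnh8, of the elk branch, was lower, at 14.5 to 53.4 CPM (Het) and 17.0 to 35.3 CPM (KO).

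Silent Kv subunits were the next subfamily after the ether-a-go-go genes, at 39.4 ± 8.36 CPM per kb. They are known to form channels with other Kv subunits and to change their gating. Of the 10 genes, Kcns3 and Kcnf1 held nearly all of it. Kcns3 measured 65.0, 70.6 and 64.3 CPM in Het and 78.0, 37.4 and 92.4 in KO libraries, so the genotypes overlapped, with the KO libraries on both sides of the Het libraries. The KO to Het difference was 0.06 log2 units (95% interval -0.87 to 0.98).

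Kcnf1, the second abundant silent subunit, was lower in every KO library than in any Het library, as were 6.1% of all tested genes. It measured 103.5, 119.3 and 86.4 CPM in Het and 50.7, 59.2 and 40.2 in KO libraries. Means were 103.1 ± 16.5 CPM (Het) and 50.0 ± 9.54 CPM (KO; SD, n = 3), a difference of -1.04 log2 units (SE 0.38, 95% interval -1.86 to -0.23). The unadjusted p was 0.0158 by edgeR, and after Benjamini-Hochberg adjustment over all genes it did not pass (adjusted p = 0.920, range over the alternatives 0.342 to 1). With 1 library left out the difference ran from -1.17 to -0.90, and the unadjusted p of the same edgeR test was 0.0706 without Het replicate 2.

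Kcnf1 (minus strand, chromosome 12, GRCm38 positions 17172100 to 17176888) has 1 annotated exon. The 250 bases before its start, chr12:17176889-17177138 on the minus strand (RefSeq, GRCm38.p6), lie in no annotated exon and are shown because Kcnf1 is the abundant member whose genotypes separated. The sequence reads 5′ to 3′ and ends at the base before the start. Capitals would mark a match to any of 4 motifs searched on both strands, and there was none.
Kcnf1: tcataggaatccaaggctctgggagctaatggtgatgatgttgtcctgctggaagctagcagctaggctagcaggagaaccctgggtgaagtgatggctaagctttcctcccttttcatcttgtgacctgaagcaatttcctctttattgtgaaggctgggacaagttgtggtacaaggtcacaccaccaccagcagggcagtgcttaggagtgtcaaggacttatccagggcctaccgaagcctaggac
The motifs were CANNTG, the E-box of basic helix-loop-helix factors, CAGGGG, a stretch of the INSM1 consensus, GGGCGG, the GC box, and TATAAA, the TATA box, of which CAGGGG and GGGCGG can share bases. They occurred in 66.2%, 21.2%, 32.7% and 12.4% of 32851 promoter windows of the same length. Among the 95 windows of 70 channel genes they occurred in 66.3%, 28.4%, 45.3% and 3.16%. The median share of G and C bases was 58.8% in the channel gene windows and 52.4% in all windows. Its part in the motif shares was not tested. A missing match says only that these letters are not in this window.

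Kcng1, another silent subunit, was far less abundant, at 10.8, 8.24 and 17.0 CPM in Het and at 0, 4.17 and 0.111 CPM in KO libraries. Every KO library lay below every Het library, as for 6.1% of all tested genes, and 2 of the 3 KO libraries held at most 1 count. Kcng1 passed the filter through its Het counts, so its separation is a description and supports no difference. The difference was -3.07 log2 units (SE 1.64, 95% interval -6.59 to 0.45; edgeR adjusted p = 0.938). Without KO replicate 2 it was -7.49.

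**Figure D2:**
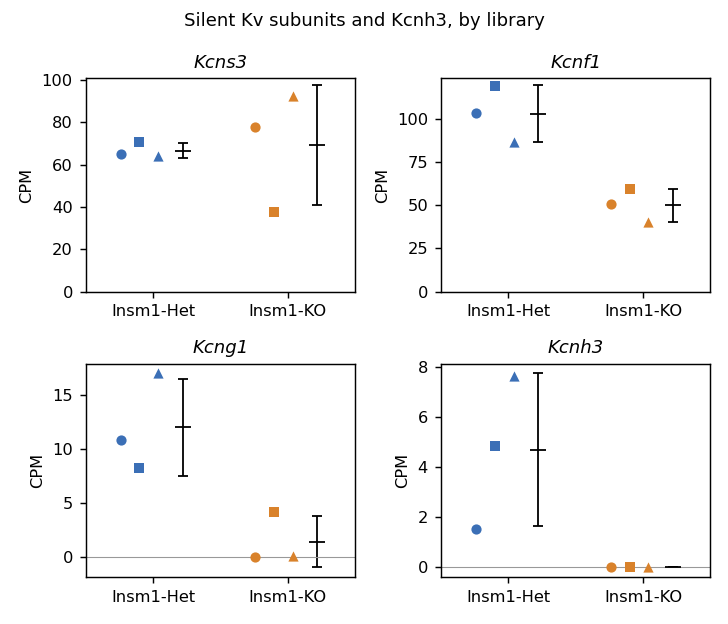
CPM of 3 silent Kv subunits (Kcns3, Kcnf1, Kcng1) and Kcnh3 in each library on linear axes; the symbol shapes are the replicates 1 (circle), 2 (square) and 3 (triangle), and the bars are mean ± SD of 3 libraries. Kcnf1, Kcng1 and Kcnh3 are lower in all KO libraries, as are 6.1% of all tested genes, and the KO libraries of Kcns3 lie on both sides of the Het libraries.

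Kv1 genes together reached 27.5 ± 18.0 CPM per kb, the widest spread among the abundant subfamilies. Kcna10, a Kv1 gene known from hair cells of the inner ear, made up 68.9% of it. It measured 13.4, 59.4 and 51.5 CPM in Het and 6.94, 13.3 and 102.2 in KO libraries. Of the libraries, 3 were low and 3 were high, and each genotype had both kinds. Kcna4, of a fast-inactivating A-type channel, ranged from 4.78 to 38.4 CPM (Het) and from 9.82 to 46.8 CPM (KO), and Kcna2 and Kcna6 also overlapped between genotypes. Kcna7 was at 0 counts.

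Kcnc1, of a channel known for fast repolarisation in neurons, averaged 7.30 ± 5.42 CPM (Het) and 4.37 ± 4.94 CPM (KO; SD, n = 3), and its relatives Kcnc2 and Kcnc4 did not pass the filter.

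Kv4 channels, the A-type partners of the auxiliary KChIP proteins, were low, at 0.593 ± 0.747 CPM per kb. Kcnd1 had 102 counts in KO replicate 1 and at most 31 in any other library. Kcnd2 had 1, 17 and 0 counts in the Het libraries and 0, 0 and 1 in the KO libraries. Of the KChIP genes, Kcnip3, a calcium-binding protein that also acts as a transcriptional repressor, was abundant, averaging 65.0 ± 24.8 CPM (Het) and 66.6 ± 8.02 CPM (KO; SD, n = 3). Kcnip2 had 3 counts in 1 library. Dpp10, another Kv4 partner, was counted in every library at 59.8 to 95.1 CPM, and Dpp6 at 42.3 to 80.8 CPM (Het) and 49.9, 50.0 and 393.2 CPM (KO).

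Kcnh3 and Kcnh5, low-count members of the ether-a-go-go family, were also lower in every KO library than in any Het library, as were 6.1% of all tested genes. Kcnh3, an elk subunit, was at 1.55, 4.87 and 7.67 CPM in the Het libraries and had 0 counts in each KO library. Relative to a floor of 3 counts over the KO libraries, the Het mean was at least 40.7-fold higher, and the bound holds for that mean only. Kcnh3 (plus strand, chromosome 15, 99224861 to 99242817) passed the filter through its Het counts alone, so that it had to differ, and its p is not used. Kcnh5, an eag subunit, measured 3.75, 4.68 and 5.14 CPM in Het and 2.14, 0 and 0.223 in KO libraries. The difference was -2.50 log2 units (SE 1.81, edgeR adjusted p = 0.958), and -5.17 without KO replicate 1. Kcnh5 also passed the filter through its Het counts, so its separation supports no difference.

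Kcnq1, which forms the potassium secretion channel of strial marginal cells with Kcne1, had between 0 and 7 counts per library, and Kcne1 had 0 counts in every library.

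Calcium-activated channels were split between pore and auxiliary genes. Kcnma1, the BK pore, had 24, 0 and 1 counts in the Het libraries and 7, 0 and 2 counts in the KO libraries. Kcnmb2, a BK beta subunit, measured 132.8, 92.9 and 135.6 CPM in Het and 116.0, 66.1 and 100.3 in KO libraries. The auxiliary gene was thus abundant in all 6 libraries in which its pore gene was nearly uncounted, and BK current is known to appear in hair cells only later. Over the pooled libraries Kcnmb2 stood at 1163 times Kcnma1 per length, and at 2643 times without Het replicate 1, which held most counts of Kcnma1. The genotypes of Kcnmb2 overlapped, at -0.36 log2 units (95% interval -1.10 to 0.39), and -0.15 without KO replicate 2. Kcnmb1 averaged 3.83 ± 2.74 CPM (Het) and 0.693 ± 0.882 CPM (KO; SD, n = 3), and Kcnmb4 did not pass the filter.

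Kcnn2 measured 4.72, 0.468 and 33.7 CPM in Het and 3.84, 14.2 and 0.668 in KO libraries. Het replicate 3 held 58.5% of its summed CPM, and each genotype had libraries near 0. The KO to Het difference was -1.06 log2 units (95% interval -4.08 to 1.97), which turned to 1.25 when Het replicate 3 was left out. The receptor genes it works with were steadier. Chrna9 averaged 134.8 ± 35.6 CPM (Het) and 132.8 ± 9.38 CPM (KO), and Chrna10 156.1 ± 14.8 CPM (Het) and 185.1 ± 33.6 CPM (KO; SD, n = 3). Kcnu1, a Slo channel known from sperm, averaged 2.17 ± 1.94 CPM (Het) and 0.356 ± 0.616 CPM (KO; SD, n = 3).

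**Figure D3:**
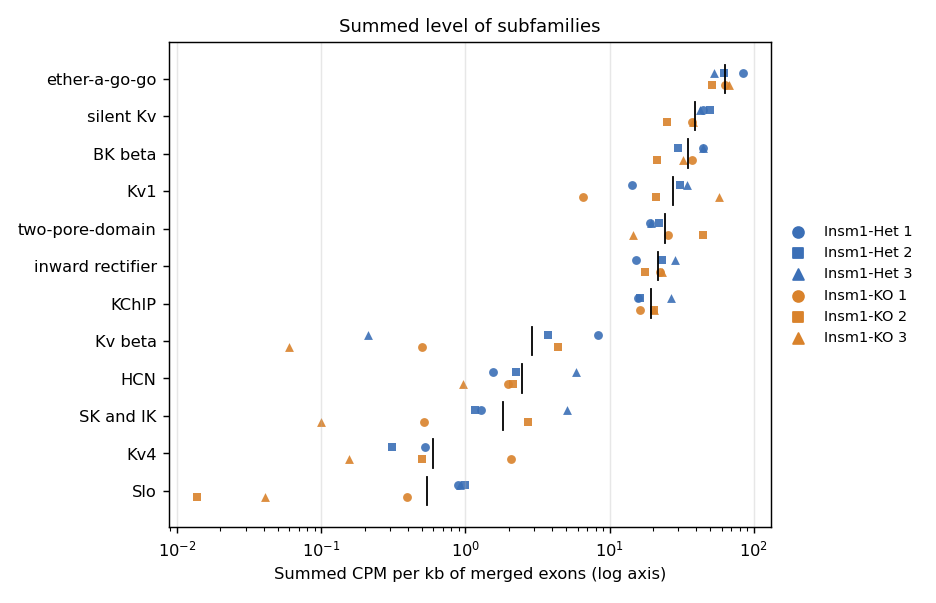
Summed level of subfamilies with a mean of at least 0.5 CPM per kb, in each library on a log axis; blue symbols are Insm1-Het libraries, orange symbols Insm1-KO libraries, and the black line is the mean of 6. Subfamilies whose highest member is not reported here by name are left out of the figure, whatever their level. Among those shown, the ether-a-go-go genes lead at 63.6 CPM per kb, and the Kv4 and Slo pore genes are lowest.

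Inward rectifiers summed to 21.6 ± 4.60 CPM per kb, spread over several genes, with 4 of 15 at 0 counts. Kcnj2, of the classical strong inward rectifier, measured 7.65, 25.0 and 45.8 CPM in Het and 32.6, 33.3 and 10.2 in KO libraries. Kcnj11, the pore of ATP-sensitive channels, measured 10.6, 64.4 and 19.6 CPM in Het and 41.0, 10.6 and 6.57 in KO libraries. Both overlapped between genotypes. Abcc8, the sulfonylurea receptor that joins Kcnj11, averaged 4.72 ± 3.06 CPM (Het) and 12.6 ± 10.4 CPM (KO; SD, n = 3). Kcnj13 ranged from 0.375 to 17.2 CPM (Het) and from 3.42 to 15.8 CPM (KO), but 49.1% of its merged exons lie in Gigyf2 on the opposite strand, which was at 138.5 to 218.2 CPM, so its level is uncertain.

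Kcnj10, a rectifier of supporting cells, glia and strial intermediate cells, measured 13.5, 3.65 and 3.79 CPM in Het and 13.1, 12 and 31.5 in KO libraries. The genotypes overlapped through Het replicate 1. The KO to Het difference was 1.43 log2 units (95% interval -0.59 to 3.45). The summed level of 8 markers of strial intermediate cells, a list that holds Kcnj10 itself, ranged from 4.21 to 39.4 CPM (Het) and from 12.7 to 31.6 CPM (KO). Of these, Dct, Tyr, Mlana and Tyrp1 were at 0 counts in all 6 libraries, while Met reached 34.1 CPM in Het replicate 3 and Mitf 8.22 CPM in Het replicate 1. The summed level of 9 marginal cell markers ranged from 655.5 to 733.0 CPM (Het) and from 641.7 to 1197 CPM (KO), nearly all of it from Slc12a2 and Atp1b2, with Bsnd at 0 in all libraries. The summed level of 12 supporting cell markers ranged from 1210 to 1373 CPM (Het) and from 1382 to 1708 CPM (KO), highest in KO replicate 3, and the part of these markers in the values of Kcnj10 was not tested. Of those 12 markers, 10 were tested and 0 passed over all genes. At an unadjusted p under 0.05 by edgeR, Lfng and S100a1 were the 2 higher and Gjb2 the 1 lower, or 30% against 5.34% of all tested genes. Prox1, the most abundant of the 12, overlapped and averaged 453.5 CPM (Het) and 600.4 CPM (KO). Sox2, Fgfr3 and Gjb2 averaged less in KO, so the markers did not rise together.

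Among the 14 two-pore-domain genes, Kcnk1, of a weakly conducting leak channel, stood for 99.3% of the level. It measured 41.9, 48.8 and 43.2 CPM in Het and 56.6, 98.7 and 32.3 in KO libraries. The Het libraries lay close together and the KO libraries on both sides of them, and the difference was 0.49 log2 units (95% interval -0.58 to 1.55). It was 0.004 without KO replicate 2 and 0.81 without KO replicate 3. In all, 6 of the 14 genes were at 0 counts in all libraries.

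HCN genes were low, at 2.47 ± 1.75 CPM per kb for all 4. Hcn3 measured 2.77, 0 and 19.0 CPM in Het and 0.854, 5.09 and 0.111 in KO libraries, and Het replicate 3 held 68.3% of its summed CPM. Hcn2 averaged 3.40 ± 1.96 CPM (Het) and 3.37 ± 2.09 CPM (KO; SD, n = 3). Hcn4 was above 3 counts in 1 library. Kcnab2, the Kv beta subunit with the most counts, measured 43.7, 20.3 and 1.03 CPM in Het and 2.67, 23.2 and 0.334 in KO libraries, so that libraries of each genotype ranged from near 0 to above 20 CPM. Of the MinK subunits, which attach to Kv pores, Kcne2 had 9 counts, all in Het replicate 2, and the other 3 genes had 0.

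In the comparison of genotypes, 0 of the 33 tested channel genes passed the quasi-likelihood test of edgeR, Benjamini-Hochberg adjusted over 11714 genes, where 0% of all genes passed. At an unadjusted p under 0.05 there were 3 of 33, or 9.09%, against 5.34% of all tested genes. There was 1 gene higher in KO, or 3.03% against 3.19% of all genes, and Kcnf1 and Kcnh3 were the 2 lower, or 6.06% against 2.15%. DESeq2, which called 26 of all tested genes, and limma-voom, which called 0, each called 0 members after adjustment, and each had 4 at an unadjusted p under 0.05, these 3 and Kcng1. The share of all tested genes at that p is not given for DESeq2 and limma-voom, so the count of 4 is a description. With no filter on low counts edgeR called 1 member, where 0.428% of 15648 genes passed. Every KO library lay above every Het library for 1 member, or 3.03% against 5.08% of all tested genes. Every KO library lay below for 4 members, Kcnf1, Kcng1, Kcnh3 and Kcnh5, or 12.1% against 6.1%. Of the 33 genes, 12 lay above 0 and 21 below on the log2 scale, with a median of -0.18. Over all tested genes the median was 0.02 and 49.1% lay below 0. Kcnh3, Kcng1 and Kcnh5 passed the filter through their Het counts, so the shares of lower genes that include them are a description and support no difference, and they cover the tested genes and not all 97.

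**Figure D4:**
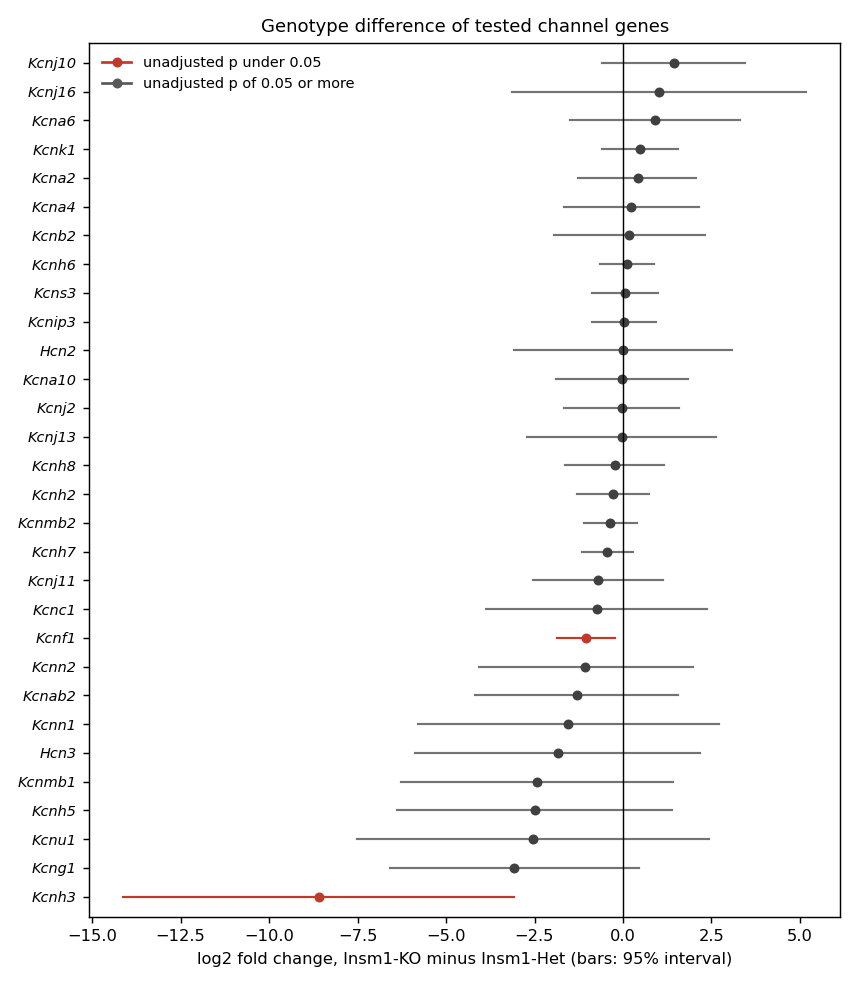
Log2 fold change (KO relative to Het) of 30 of the 33 tested channel genes with 95% intervals from edgeR's quasi-likelihood fit; red marks an unadjusted p under 0.05. Kcnf1 at -1.04 and Kcnh3 at -8.60 are marked, and the fitted value of Kcnh3, with 0 counts in KO, depends on the prior count.

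The precision differed between genes by their level. As a description of how far 1 library carries a gene, the share of its CPM found in its highest library was taken, which would be 16.7% in equal libraries. The median over the tested channel genes was 32.7%, against 28.6% over all tested genes. For 4 tested members, Hcn3, Kcnn2 and Kcnh3 among them, the highest library held more than 50%, which makes 12.1% of the tested members, against 9.59% of all tested genes. Below a mean of 30 CPM these were 3 of 22 members and 1053 of 5693 tested genes, and from 30 CPM upward 1 of 11 members and 70 of 6021 tested genes. Het replicate 3 was the highest library for 10 members, or 30.3% against 16.6% of all tested genes, and KO replicate 3 for 7, or 21.2% against 24.5%. Kcnmb2, Kcnh6, Kcnh7 and Kcns3 were the most even, between 21.1% and 22.7%. Members that did not pass the filter included genes counted mainly in 1 library. Kcnt1, a sodium-activated channel, had 110 counts in Het replicate 3 and at most 6 in any other library. Kcng4, a silent Kv subunit, had 65 counts in KO replicate 1 and at most 4 in any other. Kcna1 had 68 counts in Het replicate 3 and at most 7 in any other.

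**Figure D5:**
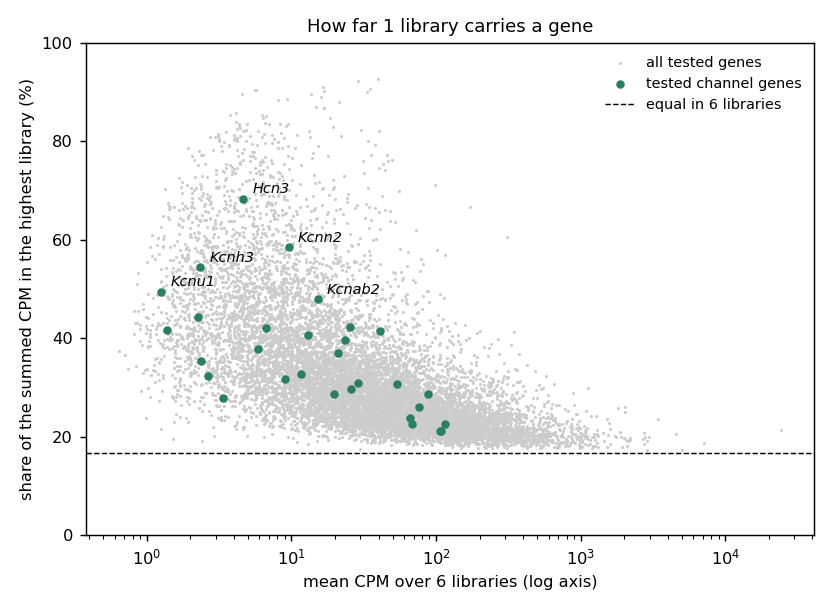
Share of the summed CPM found in the highest of the 6 libraries (y axis, percent) against mean CPM (x axis, log) for 30 tested channel genes (green) and all tested genes (grey); the dashed line is the share in equal libraries, 16.7%. Hcn3, Kcnn2 and Kcnh3 lie above 50%, as do 9.59% of all tested genes.

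Genes that work with these channels were read from a list of 30. Of these partner genes, which include regulatory subunits, anchoring proteins and calcium sources, 26 were tested and 0 passed over all genes by edgeR. At an unadjusted p under 0.05, 1 was higher in KO and 2 were lower, or 11.5% of those tested against 5.34% of all tested genes. Akap5, an anchoring protein of potassium channels, measured 1.22, 2.62 and 11.0 CPM in Het and 22, 4.57 and 51.3 in KO libraries. Nedd4l, a ubiquitin ligase that removes channels from the membrane, measured 201.6, 222.5 and 264.8 CPM in Het and 171.5, 114.0 and 125.6 in KO libraries. It was lower in every KO library, as were 6.1% of all tested genes, with a difference of -0.74 log2 units (SE 0.28, edgeR adjusted p = 0.920). Lgi1, a secreted protein that acts on Kv1 channels, measured 3.66, 15.3 and 1.90 CPM in Het and 0.107, 0.130 and 0 in KO libraries. Lgi1 passed the filter through its Het counts alone. The share of 11.5% includes it and is a description that supports no difference. Cacna1d, the calcium channel of hair cells, averaged 319.0 ± 74.3 CPM (Het) and 415.2 ± 113.3 CPM (KO; SD, n = 3).

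Potassium pumps and cotransporters supply and clear the potassium that these channels pass. Of 20 such genes 12 were tested, 0 passed over all genes by edgeR, and 1, Atp1b3, was higher in KO at an unadjusted p under 0.05, or 8.33% against 5.34% of all tested genes. Atp1b3, a beta subunit of the sodium pump, measured 3.09, 2.72 and 14.2 CPM in Het and 64.7, 14.1 and 24 in KO libraries. Atp1b2 measured 361.3, 476.6 and 365.5 CPM in Het and 327.0, 392.2 and 964.7 in KO libraries, with KO replicate 3 highest, as for Kcna10 and Dpp6.

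Markers of neurons were also counted, and many channel genes are known from neurons. The summed level of 12 spiral ganglion neuron markers came to 1246, 1393 and 1426 CPM in Het against 1288, 2015 and 1769 in KO libraries. Most of it came from Nefm at 532.1 ± 84.6 CPM (Het) and 662.9 ± 274.5 CPM (KO), Gata3 at 363.8 ± 40.8 and 569.4 ± 188.4, Nefl at 304.2 ± 19.7 and 345.5 ± 69.1, and Snap25 at 119.8 ± 24.8 and 98.9 ± 32.1 CPM (SD, n = 3). Gata3 was higher in every KO library, as were 5.08% of all tested genes, and is also expressed by hair cells. The others were low, with Tubb3 at 0 to 3.39 CPM and Prph counted in Het replicate 2 alone. The part of neuronal RNA in the values of the channel genes was not tested. The highest library of that sum was KO replicate 2.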

How the data were processed

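RNA of sorted outer hair cells, 3 libraries per genotype, was depleted of ribosomal RNA, amplified and sequenced; the labels name more than 1 site of library synthesis and assign no library to either. The authors deposited raw read counts per gene symbol, made with Trimmomatic, STAR and HTSeq on GRCm38 (mm10), per the submitters' processing notes; annotation, strand setting and versions: not given in the sources used here. Of the 97 members, 97 matched GENCODE M21, which gave positions and merged exon lengths, and 11 of the 33 tested members share exon bases with another gene. The members, gene lists and tests were chosen with earlier results of these data known.

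Genes were kept by filterByExpr (minimum count 10, minimum total 15; 11714 genes) and scaled by TMM. Genotypes were compared over the whole table with edgeR 4.0.16 (quasi-likelihood F test, R 4.3.3) with Benjamini-Hochberg adjustment at 0.05. SE was taken as |log2 fold change| over the root of F, and intervals use the t distribution. Floors are 3 counts and cover counting error only, since amplified reads are not independent molecules. Alternatives used DESeq2 1.42.0 and limma 3.58.1 (voom), other scaling, no filter, the newer form of the fit, the replicate number as a block, and each library left out. The fit was tested on simulated data. Named members were those past the threshold, the 20 highest per length, the 6 with the smallest p in each direction, the highest of each subfamily, and 21 known from the cochlea; others are named after their values were seen. The values of 5 members, 3 of them tested, are not reported here by name and are counted in all totals.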

Additional observations from a re-analysis of the deposited data

How the results depend on the processing

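The count of members past the adjusted threshold was 0 in every setting but 1: with no filter on low counts it was 1. With 1 library left out it was 0 throughout, while members at an unadjusted p under 0.05 ran from 0 to 1 higher and from 1 to 5 lower, members with all KO libraries above ran from 1 to 4 (8.74% to 11.2% of all tested genes) and below from 4 to 7 (10.5% to 13.4%), and the summed level ran from 1235 to 1287 CPM in Het and from 1118 to 1279 CPM in KO. The 0 higher came without KO replicate 3, the 1 lower without Het replicate 2 and the 5 lower without KO replicate 2, while 4 lay above without KO replicate 1 and 7 below without Het replicate 2 or KO replicate 1. The share of all tested genes at an unadjusted p under 0.05 is not given for these fits or for the replicate block. Their counts of members at that p are a description. With the longest transcript as the length, the KChIP level was 25.1 in place of 19.2 CPM per kb, that of SK and IK genes 3.21 in place of 1.81, and that of Kv beta genes 4.16 in place of 2.88. Of 364 log2 fold changes of 28 members under the alternatives, 318 kept their sign, and 14 members kept it throughout, Kcnf1, Kcnh3 and Kcng1 among them. Kcnh3 had 0 counts in every KO library, so its sign could not turn. Kcng1 passed the filter through its Het counts, so its kept sign supports no difference. For other members the sign turned as follows, in log2 units, and the cause was not tested. Hcn2 was 0.01 with median-ratio scaling and with DESeq2, 0.03 with limma-voom and 0.09 with the newer form. Kcna10 was 0.0005 with median-ratio scaling, 0.0002 with DESeq2 and 0.02 with the newer form. Kcnip3 was -0.01 with upper quartile scaling. With limma-voom, Kcnj13 was 0.69, Kcnj2 0.10 and Kcns3 -0.003. Same-numbered libraries did not deviate together (correlations 0.0101, 0.0073 and 0.0144). This gave no sign that the numbers pair the samples but does not settle it, and the labels do not say. With the replicate number as a block, members called stayed at 0, with 1 higher and 3 lower at an unadjusted p under 0.05, and Hcn2 was 0.002, Kcna2 -0.02, Kcnj13 0.54, Kcnj2 0.16 and Kcns3 -0.04. With 1 library left out, the sign also turned within these ranges: Hcn2 -0.61 to 0.56, Hcn3 -3.88 to 0.53, Kcna10 -2.02 to 0.48, Kcna2 -0.71 to 0.81, Kcna4 -0.83 to 1.22, Kcnh2 -0.65 to 0.20, Kcnh6 -0.06 to 0.38, Kcnh8 -0.58 to 0.39, Kcnip3 -0.13 to 0.40, Kcnj11 -1.88 to 0.36, Kcnj13 -0.73 to 0.79, Kcnj2 -0.49 to 0.65, Kcnn2 -2.52 to 1.25 and Kcns3 -0.20 to 0.37.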
